A study of Mus musculus with 6 samples.

Results

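The genes described here encode the machinery that licenses DNA replication origins and copies DNA at the replication fork in mouse embryonic stem cells. They were chosen by name, from a list of 45 subunits and regulators of that machinery, and a gene was a member where its symbol matched a row of the deposited FPKM table. FPKM is the count of a gene scaled to its effective length and to the total count. The table held 43 of the 45 listed genes among its 18312 genes. The other 2, Pola2 and Fen1, had no row under those symbols and were not analysed here.

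The question of the study was which transcripts are bound by Brf1 (gene Zfp36l1) and Brf2 (gene Zfp36l2), zinc finger proteins that bind AU-rich elements and promote mRNA decay. All 6 libraries came from wild-type E14 cells of the 129/Ola background, grown in 15% serum with LIF at 1000 U/ml, and were made from cytoplasmic extracts. There were 2 libraries of RNA precipitated with an antibody that recognises Brf1 and Brf2, 2 of RNA precipitated with non-specific rabbit IgG, and 2 of total RNA. No column of the table names a library, so the table was treated as a single unassigned profile, and neither immunoprecipitate could be compared with total RNA or with each other. The levels below are therefore levels in that profile and measure neither binding nor enrichment. If the table holds precipitated RNA, they do not measure expression in the cells either.

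The profile had 22625281 counts, and the members held 191208 of them, 0.845% (Wilson 95% interval 0.841 to 0.849). Each interval on FPKM is the one in the authors' table, which spans 2 square roots of the count on either side of the value, and covers counting error only. The 6 embryonic stem cell markers examined had a median of 183 FPKM, with Esrrb lowest at 40.6. Of 5 measured fibroblast markers 1 reached 1 FPKM, Thy1 at 3.74, and of 3 measured primitive endoderm markers none did, with Sox7 highest at 0.535. Fap had no count, which allows up to 0.0460 FPKM (3 counts). In a bulk profile, few cells with a marker and little marker RNA per cell cannot be told apart.

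Replication starts in a licensing step, in which the origin recognition complex, Cdc6 and Cdt1 load the ring of Mcm2 to Mcm7 onto DNA. Cdc7 with its activator Dbf4, and the cyclin-dependent kinases, then turn that ring into an active helicase by adding Cdc45 and the GINS complex. Polymerase alpha with primase starts each new strand, the loader RFC places the sliding clamp PCNA, and polymerases delta and epsilon extend it. Embryonic stem cells divide quickly and spend much of their cycle in S phase.

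All 43 measured members had at least 1 FPKM, as did 56.0% of all genes, and 42 had at least 5 FPKM, as did 38.3% of all genes. On the model length all 43 again had at least 1 FPKM, as did 58.2% of all genes. The median was 36.2 FPKM over the members and 1.94 over all genes. Levels ran 66.1-fold, with Pcna highest at 329 FPKM and Mcm8 lowest at 4.98. Of the members, 41 stood at or above the 75th percentile of all genes, 24 at or above the 90th and 12 at or above the 95th. Those below the 75th were Mcm8 and Gins3. At 100 FPKM or more stood 4 members, Pcna, Top2a, Mcm7 and Dbf4, and 3.06% of all genes did so. As many as 11 members did on the model length, with Gmnn, Mcm2, Mcm3, Mcm5, Mcm6, Rpa1 and Lig1 added, as did 4.20% of all genes.

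**Figure D1:**
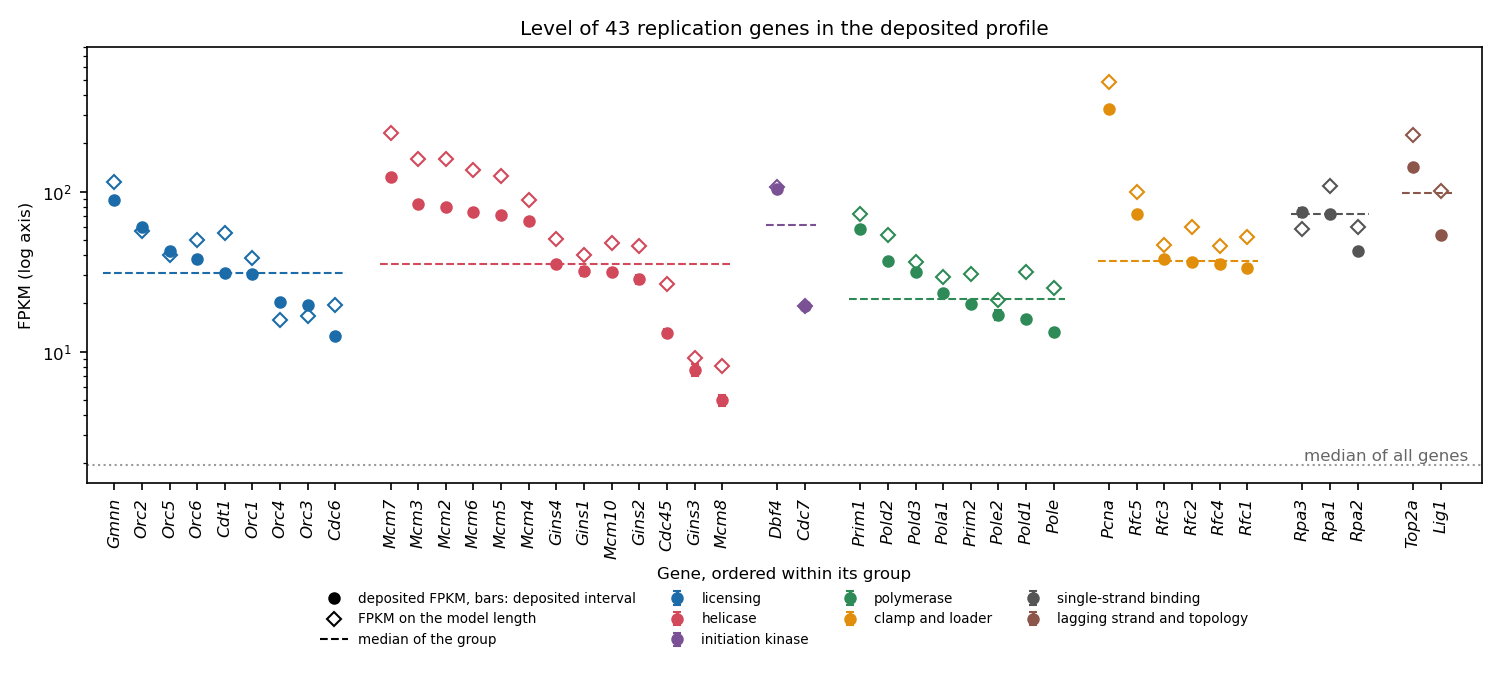
FPKM on a log axis for each measured member, ordered within its group. Filled circles are deposited values with their intervals, which are mostly narrower than the circle. Open diamonds are values on the model length. Dashed lines are group medians and the dotted line is the median of all genes, both of the deposited values. Pcna stands highest at 329 FPKM, and each member lies above the all-gene median of 1.94.

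**Figure D2:**
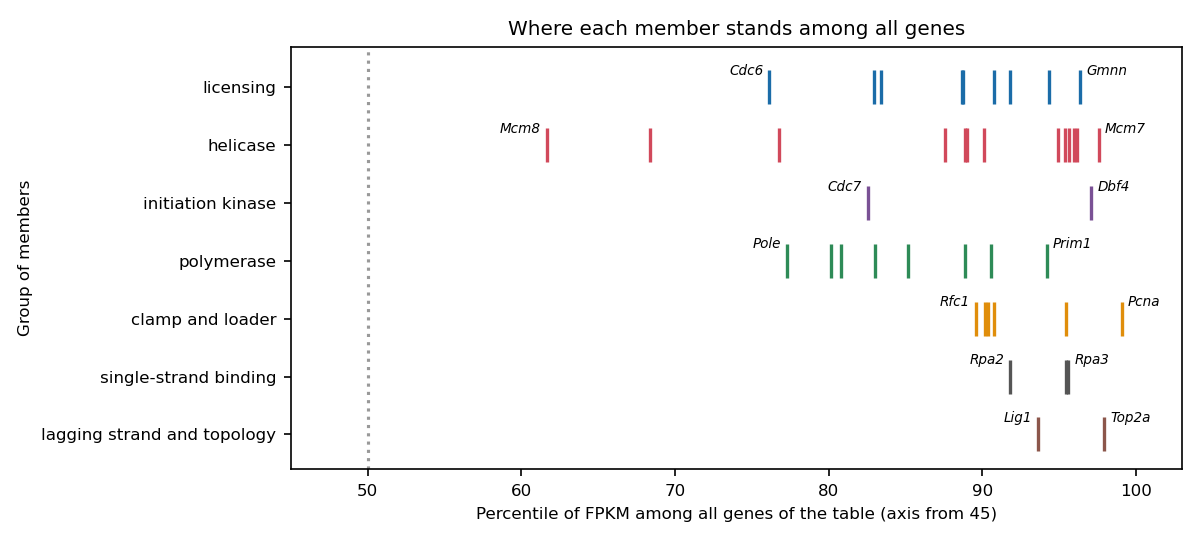
Percentile of each member's FPKM among the 18312 genes of the table, on an axis that starts at 45, with 1 tick per member and the lowest and highest member of each group named. The helicase group spans the widest range, from Mcm8 at 61.7 to Mcm7 at 97.6, while all 6 clamp and loader genes lie between 89.6 and 99.1.

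The group medians differed by several fold. The polymerase genes had the lowest median, 21.5 FPKM over 8 genes, and the licensing genes had 31.0 over 9. The 13 helicase genes had a median of 35.2 and the 6 clamp and loader genes 36.9. Medians were higher for the 2 initiation kinase genes at 61.7, the 3 single-strand binding genes at 72.3, and the pair Lig1 and Top2a at 98.1. Genes are not replicates and share 1 profile, so no test was made between groups. Ranges overlapped widely: the polymerase genes ran between 13.3 and 58.6 FPKM, the licensing genes between 12.5 and 88.0, and the helicase genes between 4.98 and 124. The helicase median depended on its membership, and was 65.5 FPKM without Mcm8 and Mcm10, which are not subunits of the core helicase.

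Within the licensing group, the origin recognition complex was uneven. Orc2 was highest at 59.9 FPKM (58.0 to 61.7), followed by Orc5 at 42.5 and Orc6 at 37.7. Orc1, the subunit whose protein level is known to oscillate through the cell cycle in human cells, had 30.7 FPKM (29.5 to 31.9). Orc4 at 20.3 and Orc3 at 19.6 were lowest, and their intervals overlap. On the model length Orc2 was again highest at 56.3 FPKM, but Orc6 at 49.9 stood above Orc5 at 40.2, and Orc4 was lowest at 15.7. Orc2 was 3.05 times Orc3 (exact 95% interval 2.90 to 3.21, counting error only). The Orc2 exons overlap those of Nif3l1 on the opposite strand over 1150 nt in the GRCm38 annotation, and the Orc4 exons overlap Acvr2a and Mbd5. Strand handling is not stated, so reads shared with these partners cannot be told apart. In all, 11 members have exons that overlap another coding gene in that annotation, among them also Cdc45, Gins2, Lig1, Orc6, Pole2, Rfc2 and Rfc4. The share of all genes with such an overlap was not computed. For Gins2 the overlap of 2758 nt exceeds the whole model of 1038 nt, so part of it lies outside the counted model.

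The loading factors stood at different levels. Cdc6, the ATPase that joins the origin recognition complex to recruit the helicase, had 12.5 FPKM (11.99 to 13.11), rank 41 of the 43 members. Cdt1, which brings the helicase to Cdc6, had 31.0 (29.8 to 32.2), 2.47 times Cdc6 (2.33 to 2.62). Geminin (Gmnn), the inhibitor that binds Cdt1 and blocks relicensing, had 88.0 (84.5 to 91.5), the highest of the licensing group. Gmnn was 2.84 times Cdt1 (2.69 to 2.998), and 2.10 times on the model length. These are ratios of RNA levels and give nothing on the proteins, whose abundance is set largely by degradation.

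The 6 subunits of the Mcm2 to Mcm7 ring had similar levels in the deposited FPKM. Mcm7 was highest at 124 FPKM (122 to 126). The other five lay between 65.5 and 83.8, in the order Mcm3 at 83.8, Mcm2 at 80.0, Mcm6 at 74.5, Mcm5 at 70.9 and Mcm4 at 65.5. No 2 of the 6 intervals overlapped. Mcm7 was 1.89 times Mcm4 (1.84 to 1.95), the narrowest range of the complexes with more than 3 measured subunits. On the model length the same ratio was 2.61, above the range of 2.17 in RFC. The ring held 61170 counts, 32.0% of those of all members. Mcm7 exons overlap Ap4m1 by 321 nt and Cops6 by 64 nt, both on the opposite strand.

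The other helicase components were lower than the ring. Cdc45, which with GINS converts the ring into the moving helicase, had 13.0 FPKM (12.3 to 13.8). Mcm7, the highest of the ring, was 9.53 times as high (8.99 to 10.1), while the median of the ring was 77.2 FPKM. Of the GINS subunits, Gins4 had 35.2 FPKM, Gins1 31.7 and Gins2 28.2. Gins3 had 7.73 (7.03 to 8.42) from 496 counts, the fewest of any member. Gins4 was 4.55 times Gins3 (4.11 to 5.05), the widest range of the 8 complexes in the plot of subunit levels, which leaves out the kinase. Gins2 at 45.7 FPKM stood above Gins1 at 39.9 on the model length. The median of the ring was 2.58 times that of GINS and 2.26 times that of the origin recognition complex, and 3.47 and 3.77 times on the model length. Mcm10, which helps activate the assembled helicase, had 31.3 FPKM (30.3 to 32.3). Mcm8, a relative of the ring subunits that acts with Mcm9 in recombination, had 4.98 (4.56 to 5.39), and Mcm2 was 16.1 times as high (14.8 to 17.5). Mcm9 itself, no member of the list, had 2.50 FPKM.

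The partners of the initiation kinase were far apart. Dbf4, the activating subunit, had 104 FPKM (102 to 107) from 5874 counts. Cdc7, the catalytic subunit, had 19.2 (18.1 to 20.3) from 1291 counts. Dbf4 was 5.43 times Cdc7 (5.12 to 5.78) and 5.51 times on the model length, so this order did not depend on the effective length.

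**Figure D3:**
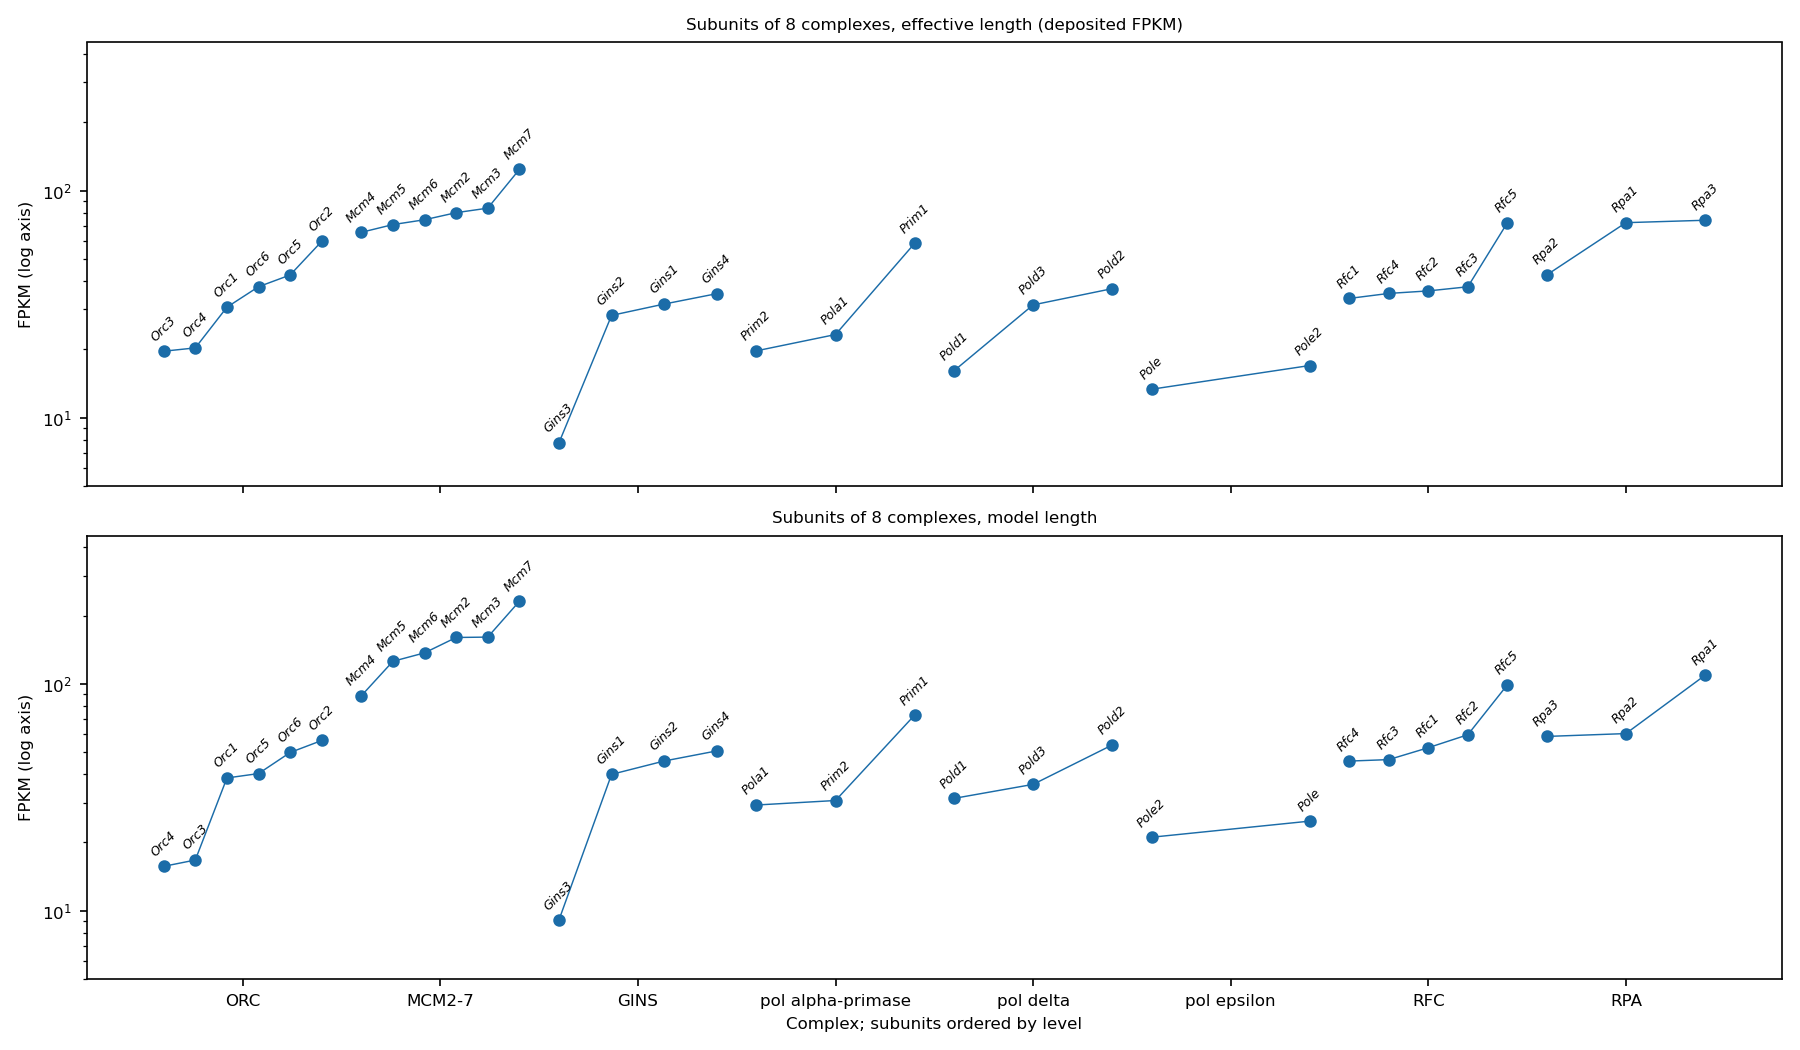
FPKM on a log axis for the measured subunits of 8 complexes, on the effective length in the upper panel and on the model length in the lower, with points of a complex joined in order of level. The Mcm2 to Mcm7 ring lies between 65.5 and 124 FPKM in the upper panel, Gins3 lies apart from the other GINS genes in both, and Pole and Pole2 change places between the panels.

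Among the polymerases, 1 of the primase subunits stood apart. Prim1, the catalytic primase subunit, had 58.6 FPKM (56.2 to 60.9), against 23.2 (22.45 to 24.01) for Pola1, the catalytic subunit of polymerase alpha, and 19.7 (18.6 to 20.8) for Prim2, the regulatory primase subunit. Prim1 was 2.97 times Prim2 (2.78 to 3.18). On the model length Pola1 and Prim2 had 29.2 and 30.6 FPKM and their order turned. For polymerase delta, which extends the lagging strand, the accessory subunits Pold2 at 37.0 FPKM and Pold3 at 31.4 stood above the catalytic Pold1 at 16.1, in the deposited values and on the model length. Pold2 was 2.30 times Pold1 (2.17 to 2.44). For polymerase epsilon, which extends the leading strand, Pole2 had 17.0 FPKM (15.8 to 18.2) and the catalytic Pole 13.3 (12.9 to 13.8). That order also turned on the model length, with 21.1 for Pole2 and 24.8 for Pole, so the profile gives no stable order for these subunits.

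The clamp stood far above its loader. Pcna, the sliding clamp that tethers the polymerases to DNA, had 329 FPKM (323 to 334) from 13813 counts and ranked 169th of all genes. It was 9.09 times the median of the RFC genes and 9.26 times on the model length. Annotated pseudogenes carry its name, Pcna-ps1 and Pcna-ps2. Unique counts equal total counts in every gene row, so no read is recorded as shared between rows. How reads that also match the pseudogenes were treated is not stated. Rfc1, the large loader subunit, had 33.5 FPKM, and Rfc2, Rfc3 and Rfc4 had 36.2, 37.7 and 35.3. Each of these intervals overlaps that of its neighbour in level, and on the model length the order of these 4 differed, with Rfc2 highest at 59.7 FPKM and Rfc4 lowest at 45.7. Rfc5 stood apart at 72.2 (69.9 to 74.5), 1.91 times Rfc3 (1.796 to 2.041). Rfc5 exons overlap those of Wsb2 on the opposite strand over 499 nt.

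RPA coats single-stranded DNA behind the helicase. Rpa3, its smallest subunit, had 74.1 FPKM (69.0 to 79.2), Rpa1, the main DNA-binding subunit, 72.3 (70.6 to 74.0) and Rpa2, which is phosphorylated under replication stress, 42.6 (40.8 to 44.3). The intervals of Rpa3 and Rpa1 overlap. On the model length Rpa1 had 109 FPKM, against 58.7 for Rpa3, which has the shortest model of the members at 638 nt. Lig1, the ligase that seals Okazaki fragments, had 53.6 FPKM (52.3 to 54.8). Top2a, the topoisomerase that untangles replicated chromosomes, had 143 (141 to 144) and the most counts of any member, 26588. Top2a was 6.15 times its paralog Top2b (5.94 to 6.36), which had 23.2 FPKM.

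In the order of the 43 members by FPKM, 26 of the 42 pairs of neighbours had overlapping intervals. An unbroken run of such pairs led from Orc6 at 37.7 FPKM down to Gins2 at 28.2 and included Rfc1 to Rfc4, Gins1, Gins4, Pold2, Pold3, Mcm10, Cdt1 and Orc1, so the order within it was not resolved between neighbours. The effective length exceeded the model length for 38 of the 43 members, a share that was not computed over all genes. Over all 43 the ratio ran between 0.774 for Orc4 and 2.02 for Cdc45, with a median of 1.44 against 1.27 over all genes. Across the 43 members the deposited values and those on the model length had a Spearman rho of 0.943, which describes genes that share their counts on both scales. The largest move in rank was 10 places, by 2 members. Cdt1 was 29th in the deposited values and 19th on the model length, and Orc5 was 18th in the deposited values and 28th on the model length.

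Other genes that work beside the fork were also present. All 23 measured fork accessory genes reached 1 FPKM (median 22.9), as did 56.0% of all genes. Tipin, which with Timeless stabilises the fork, had 118 FPKM, Top1 61.4 and Chtf8, part of an alternative clamp loader, 44.8, while Mcm9 was lowest. All 14 genes of nucleotide supply did so too (median 54.9). Nme2 had 323, Nme1 120 and Rrm2, the small subunit of ribonucleotide reductase, 111. All 10 measured genes of chromatin assembly at the fork did, with a median of 73.7. The histone chaperone Nasp had 379 FPKM, the histone acetyltransferase Hat1 232 and the chaperone Rbbp4 139, while Tonsl was lowest at 5.07.

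Promoters of replication genes are textbook targets of E2F factors, which drive transcription on entry to S phase. RefSeq promoter windows on GRCm38.p6, of 250 bases before and 50 after the annotated start, were found for 35 of the 43 members. Those without a window were Gmnn, Mcm4, Gins1, Gins2, Gins4, Prim2, Pole and Rfc2. The windows were searched on both strands, with a gene counted where any of its windows held a match, for TTTCCCGC, TTTGGCGC, TTTCGCGC and TTTGCCGC. Of the 35 members, 16 (45.7%) had at least 1 match, against 5.14% of the 7659 genes of the table with a window and at least 1 FPKM, 3.40% of all 13506 genes with a window and 2.26% of all 32851 windows. Before the start alone, 9 members had a match (25.7%), against 4.31% of genes with at least 1 FPKM and 2.79% of all genes with a window. Without the first T of each motif, 23 members had a match (65.7%), against 20.7% and 14.8%, so the ratio of the shares was smaller than with it. These are shares without a test, and a match is not evidence of binding.

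By group, 6 of 9 helicase genes, 4 of 6 polymerase genes and 4 of 8 licensing genes with a window had a match, as did 1 of 5 clamp and loader genes and Lig1. None of the 3 single-strand binding genes and neither initiation kinase gene had these letters in its window. The pattern by group depended on the first T: without it, Rpa2, Rpa3 and Cdc7 had a match, and 3 of the 5 clamp and loader genes did, Rfc1, Rfc3 and Rfc4. The members held 22 matches, of which 4 overlapped each other as 2 pairs, and 15 started within 50 bases of the start site. The window ends 50 bases after the start, so every match after the start is among the 15. Among the ring genes Mcm5 and Mcm6 each held such an overlapping pair, in which a match on each strand shares the central bases. Sites of the ring genes and of the loading factors Orc1, Cdc6 and Cdt1 are shown, since these proteins act together in licensing, with 1 site per gene. Capitals mark the match, which reads as its reverse complement where it lies on the strand opposite the gene.
Mcm3: cttccgtgGCGGGAAAacttggga
Mcm5: ccaagaacTTTCGCGCcaaaacgt
Mcm6: cgtatgctTTTGGCGCgaaaagtg
Mcm7: tgacgacgTTTCGCGCcaatttcg
Orc1: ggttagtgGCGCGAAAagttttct
Cdc6: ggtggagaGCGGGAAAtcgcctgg
Cdt1: actaccttTTTGGCGCcatggcgc
The printed windows lie, on GRCm38.p6, at chr1:20820278-20820301 on the minus strand for Mcm3 and chr8:75109348-75109371 on the plus strand for Mcm5. Those of Mcm6 and Mcm7 lie on the minus strand at chr1:128359800-128359823 and chr5:138171852-138171875. Those of Orc1, Cdc6 and Cdt1 lie on the plus strand at chr4:108579419-108579442, chr11:98908005-98908028 and chr8:122568039-122568062. The printed matches of Mcm3, Mcm7 and Cdt1 lie after the start site, at positions 20, 17 and 33. Mcm7 also held a match at -165, which is not shown. The printed Mcm7 match overlaps a CCAAT motif, the only match that did so.

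**Figure D4:**
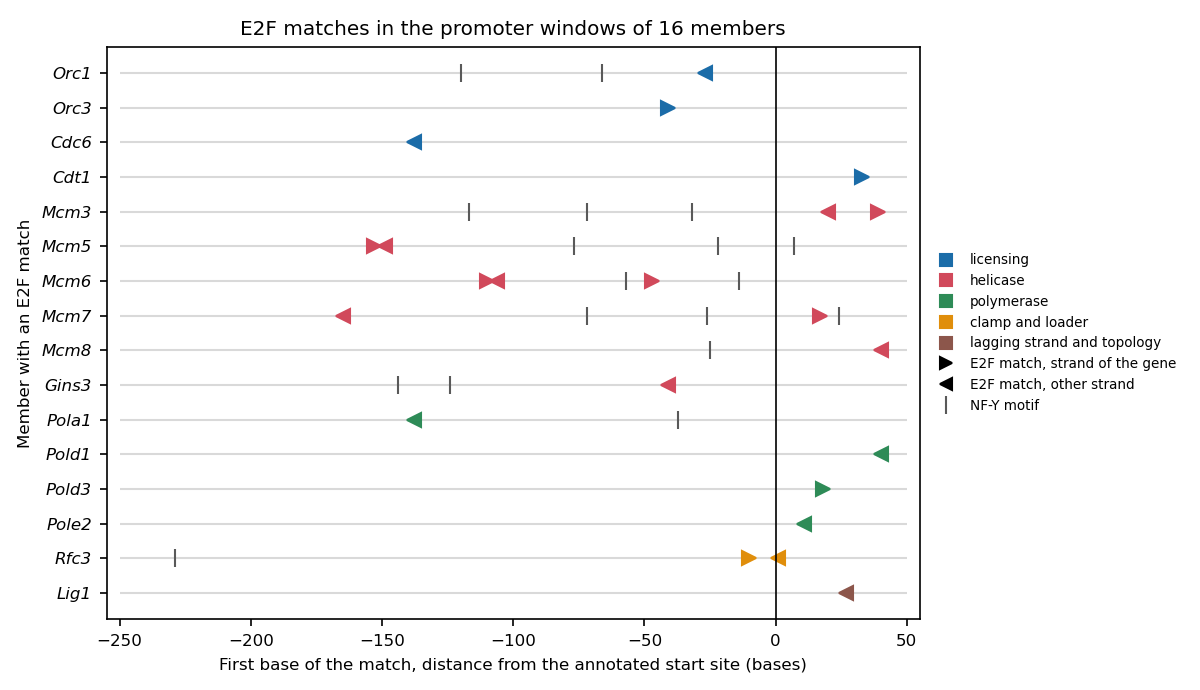
Position of E2F matches (triangles, coloured by group and pointing by strand) and of the CCAAT motif that NF-Y factors bind (grey bars) in the promoter windows of the 16 members with an E2F match, as the distance in bases from the annotated start site at the black line. Matches start between -165 and 40, and Mcm6 holds 3.

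The CCAAT motif, on either strand, was found for 23 of the 35 members (65.7%), against 43.9% of genes with a window and at least 1 FPKM and 42.4% of all genes with a window. Top2a held 6, the most of any member, and Mcm2, Pcna, Cdc45 and all 3 RPA genes, which lacked an E2F match, had at least 1. The TTTGAA motif, a form of the element that late cell cycle genes carry, was found for 7 of the 35 members, against 13.6% of genes with a window and at least 1 FPKM and 17.2% of all genes with a window. Cdc45, Pold2 and Top2a held 2 each, and Mcm2, Gins3, Cdc7 and Dbf4 held 1.

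The study concerned AU-rich elements, so the 3′ untranslated regions of the members were read from GENCODE M21 transcripts. Of the 43 members, 42 had an annotated region of at least 50 nt, and Pold1 did not. The longest region per gene had a median of 547 nt over the members, against 1200 nt over genes with at least 1 FPKM and 1062 nt over all 16276 genes with a region. TATTTAT, the core of the element that ZFP36 proteins bind, was found on the sense strand in 6 of the 42 (14.3%), against 31.1% of genes with at least 1 FPKM and 29.5% of all genes with a region. The members' regions were also shorter, and the part of length in the lower share was not tested. The looser ATTTA was found in 27 members (64.3%), against 71.3% and 67.8%.

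The 6 members with TATTTAT were Orc1, Cdc6, Mcm2, Mcm5, Cdc45 and Cdc7, each with 1 site. By group they were 2 of 9 licensing genes, 3 of 13 helicase genes and 1 of 2 kinase genes, against 0 of 7 polymerase genes with a region, 0 of 6 clamp and loader genes, 0 of 3 RPA genes and neither Lig1 nor Top2a. These counts are small, and no test was made between the groups. Their levels ran between 12.5 FPKM for Cdc6 and 80.0 for Mcm2. Their sites are shown because the study concerned proteins that bind this element, with the motif in capitals.
Orc1: ttattttccatTATTTATtttgctttttcc
Cdc6: gattgtgaataTATTTATtttcaagtttcg
Mcm2: cattaaatgacTATTTATtcttctgccccc
Mcm5: ctccagggcttTATTTATagcaagtgggcc
Cdc45: ctccttttcctTATTTATatttcctggcca
Cdc7: agtgttacatgTATTTATatttggagccaa
Only the Orc1 site lay inside the longer TTATTTATT, which 8.64% of genes with at least 1 FPKM held. The bases shown for Orc1, Mcm2, Cdc45 and Cdc7 were in every annotated region of those genes, and those for Cdc6 and Mcm5 were not. The shortest region of Cdc6 still held the motif, and that of Mcm5 did not. The Cdc45 site began 37 bases after the stop codon in a region of 129 nt, the shortest of the 6. All 6 sites were in the transcript nearest in length to the table's model. For Orc3, Mcm7, Gins2, Pcna, Rfc2 and Rfc5 no transcript lay within 10% of the model length, so their regions may differ from the models behind the FPKM. Those of Gins2 and Rfc2 do differ, since regions of 3053 and 3846 nt exceed the whole models of 1038 and 1518 nt. The longest region of Rpa1, 3139 nt, also exceeds its model of 3043 nt.

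**Figure D5:**
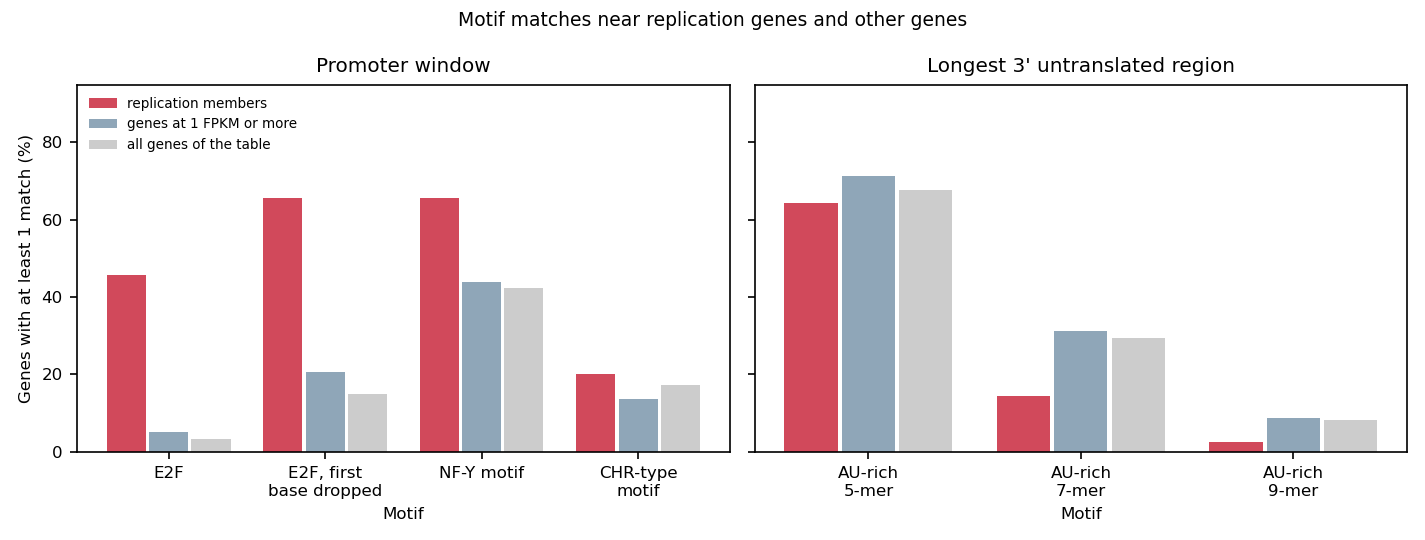
Percentage of genes with at least 1 match, for promoter motifs in the left panel and AU-rich motifs of the longest 3′ untranslated region in the right, in the replication members (red), genes with at least 1 FPKM (blue-grey) and all genes of the table (light grey). The members stand at 45.7% against 5.14% and 3.40% for E2F, and at 14.3% against 31.1% and 29.5% for the AU-rich motif of 7 bases.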

How the data were processed

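The sources describe RNA immunoprecipitation followed by sequencing from E14 cells. The submitters' processing notes name the mm9 build and the tools eXpress 1.1.1, Bowtie 1.1.2 and CASAVA 1.8.2, with no role or setting. The authors deposited 1 table with total read counts, and with estimated counts that equal them in all 18312 gene rows, per the file headers. The authors deposited FPKM with lower and upper bounds, and it was checked that each FPKM equals the count over the effective length and the total count. An unnamed row with the sum of 22625281 was not used. The table does not say how strand was treated.

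No library is named in the table, so the design allowed no test, no replicate error and no fold change between groups. FPKM on the model length was computed likewise from the length of the model. A threshold of 5 FPKM, at least 10 counts, and other motif settings were also tried. Ratios of counts carry exact binomial 95% intervals. Members and lists were chosen with earlier results of these data known, and all 43 measured members were named. Of 3 further lists, the 3 highest genes each were named, and the lowest genes named and the pairs set against each other were chosen after their values were seen. Sequences are on GRCm38, another build than mm9, and were joined by symbol. GENCODE M21 matched 43 members and 16783 genes of the table. The protein features planned were not computed, since no protein table was used here. The interval on ratios was tested on simulated counts, and the search for TATTTAT on planted sites. The promoter search and the reading of untranslated regions were not tested in this way. The software was matplotlib 3.10.9, scipy 1.17.1, pandas 2.3.3 and numpy 2.4.6 under Python 3.11.15.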

Additional observations from a re-analysis of the deposited data

How the results depend on the processing

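No paired analysis was possible because no column names a library or its replicate, and for that reason no library could be left out. Estimated counts gave the same values throughout, as they must, since they equal the total counts in every gene row. The number of members at the threshold was 43 on the model length and with at least 10 counts, and 42 at 5 FPKM. On the model length, 36 members were higher beyond their interval, 5 lower and 2 within it. How many of all genes left their interval was not computed. The median over all genes rose too, from 1.94 FPKM in the deposited values to 2.58 on the model length. Group medians were then 40.2 FPKM for licensing, 50.7 for helicase, 31.0 for polymerase and 56.0 for clamp and loader. They were 62.8 for the initiation kinase genes, 60.4 for single-strand binding and 163 for Lig1 and Top2a. The polymerase genes again had the lowest, while the initiation kinase genes now stood above the single-strand binding genes. In the deposited values, the helicase median was 65.5 without Mcm8 and Mcm10, and without Top2a its group held Lig1 alone at 53.6. The highest over the lowest subunit was 3.59 in the origin recognition complex, 2.61 in the ring, 5.58 in GINS, 2.49 in polymerase alpha and primase, 1.72 in polymerase delta and 1.18 in polymerase epsilon. By its construction the model length leaves out the authors' corrections. TATTTAT was found in 5 of 42 members with the shortest region (11.9%), against 19.9% of genes with at least 1 FPKM. With the region nearest the model length, a setting added after the data were seen, it was found in 6 of 36 (16.7%), against 28.3%, so the gap was narrower with both than with the longest region. With the longest region, ATTTA was found in 27 of 42 (64.3%), against 71.3% of genes with at least 1 FPKM. TTATTTATT was then found in 1 (2.38%), against 8.64%. An E2F match lay before the start in 9 members, and 23 had 1 without the first T, against 20.7% of genes with at least 1 FPKM. Depth limits little here, since each member had at least 496 counts, but 1 profile holds no replicate spread.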
